A study of Homo sapiens with 6 samples.

Results

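IFI44, IFI44L, IFI27, IFI6, IFI35, IFI16, RTP4 and XAF1 are genes that cells switch on in response to interferon, and their levels were compared in a human ocular melanoma line with and without knockdown of ALKBH3. They were taken by name from the deposited tables as a fixed list of IFI-named genes with RTP4 and XAF1, 8 of the 11387 genes with listed transcripts. The list does not hold every gene with an IFI symbol. The choice was made with results of this same contrast known, so the differences between the groups given below describe these genes and test nothing about the choice.

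Total RNA of the line 92.1 was sequenced in 6 libraries. The 3 libraries labelled NC are 92.1 cells of wild-type genotype, and the 3 labelled shALKBH3 are a 92.1 derivative with ALKBH3 knocked down, the prefix being the usual one for a short hairpin RNA. ALKBH3 is a dioxygenase that reverses alkylation damage in DNA and demethylates 1-methyladenosine in RNA. All cells were grown in serum-containing medium, and the labels name no interferon or other stimulus in either group. They do not say whether NC cells carried a control hairpin or whether the derivative is a single clone, so loss of ALKBH3 and the presence of a hairpin cannot be told apart. Separate cultures are not named for the libraries of a group either, so each p-value reflects only how far these libraries vary, and that variation may be technical. ALKBH3 itself was at 10.5, 10.6 and 9.19 FPKM in NC replicates 1 to 3 and at 3.29, 3.60 and 4.24 FPKM in shALKBH3 replicates 1 to 3, a log2 difference of -1.24 (SE 0.118, adjusted p = 0.0079, and 0.051 without NC replicate 1). FPKM scale the fragments of a transcript to its length and to the mapped fragments of the library. Read counts were not used here, so depth is unknown. Each library had 10328 to 10440 genes at 1 FPKM or more. That count does not measure depth, since FPKM are already scaled to the library and only transcripts above a level are listed. Differences are on the scale of log2(FPKM + 1), which understates the change of low genes, and adjusted p-values are from limma over 10475 tested genes with Benjamini-Hochberg adjustment and a threshold of 0.05. In bulk RNA, fewer cells of a type and less RNA per cell cannot be told apart.

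Type I interferons bind the IFNAR1 and IFNAR2 receptor chains, and the kinases JAK1 and TYK2 then phosphorylate STAT proteins. With IRF9 these form the complex ISGF3, which binds interferon-stimulated response elements (ISRE) in promoters, whereas STAT dimers formed after interferon gamma bind gamma-activated sites (GAS). The products act in antiviral defence, nucleic acid sensing and cell death, and tumour cells can express them without added interferon.

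The stretches upstream of these genes that hold ISRE-type or GAS-type letters are shown because such elements are known to mediate induction of many interferon-responsive genes. They are from the RefSeq promoter table on GRCh38.p14. The deposited tables were made on hg19 per the submitters' processing notes, so these coordinates are not of the tables' build. The 250 bases before each RefSeq start were searched on both strands for GAAA, any 2 bases and GAAA again (ISRE-type) and TTCNNNGAA (GAS-type, which reads the same on both strands). Capitals mark the matches. A match is a description of the letters and not a binding site. IFI44 at chr1:78649759-78649792 (plus strand) has 1 ISRE-type match, from 60 bases before its start at 78649831. IFI44L at chr1:78620272-78620396 (plus strand) has 2, in copies of a repeated stretch. IFI27 at chr14:94110616-94110662 (plus strand) has 2 on opposite strands, with a GAS-type match that overlaps both. IFI6 at chr1:27672264-27672360 (minus strand) has 3. RTP4 at chr3:187368355-187368384 (plus strand) is shown with the nearer of its 2, which lies in the first exon of its listed transcript. IFI35 at chr17:43006751-43006780 (plus strand) has a GAS-type match, also in the first exon of its listed transcripts, and no ISRE-type match.
IFI44: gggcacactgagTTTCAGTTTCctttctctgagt
IFI44L: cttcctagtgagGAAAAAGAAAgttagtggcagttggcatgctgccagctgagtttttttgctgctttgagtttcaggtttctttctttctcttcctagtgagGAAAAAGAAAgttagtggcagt
IFI27: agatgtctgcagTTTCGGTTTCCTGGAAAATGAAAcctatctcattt
IFI6: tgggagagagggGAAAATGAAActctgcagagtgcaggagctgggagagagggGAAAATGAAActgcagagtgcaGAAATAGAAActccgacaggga
RTP4: gaaccgaacaccGAAACTGAAActgtttgt
IFI35: aaggcagggatTTCACGGAAatgaaagtgg

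ISRE-type letters were found for 5 of the 8 genes, and in 7 of their 12 windows, since IFI44, IFI27, IFI16 and XAF1 have more than 1 RefSeq start. Of all 35116 windows in RefSeq's promoter set 1061 held them (3.02%). GAS-type letters were found in 3 of the 12 windows, against 6.57% of all windows. IFI16 and XAF1 had neither, which says only that these letters are not in these windows. The windows do not lie at the start of the main listed transcript of IFI16, IFI16-208, which is 4774 nt downstream of the nearest RefSeq start. The listed transcript of XAF1 starts 206 nt upstream of its nearest RefSeq start, so few of the bases searched lie before it. Among 27 other type I interferon-induced genes with such a window 19 had an ISRE-type match, as did 4 of 16 relatives, 4 of 9 interferon genes, 4 of 10 genes induced more by interferon gamma, 2 of 8 negative regulators and 0 of 12 receptor and JAK-STAT genes.

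**Figure D1:**
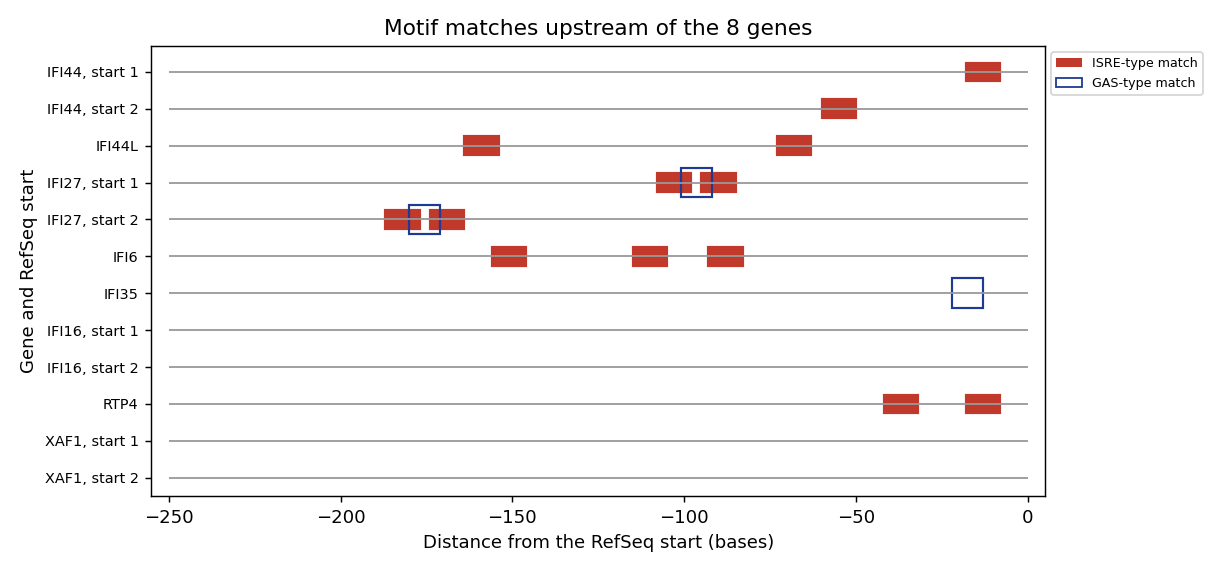
Position of motif matches in the 250 bases before each RefSeq start of the 8 genes (x axis, bases from the start; 1 line per gene and start; filled boxes ISRE-type, open boxes GAS-type). The matches of IFI44L, IFI27, IFI6 and RTP4 come in groups of 2 or 3, and the lines of IFI16 and XAF1 are empty.

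All 8 genes were higher in every shALKBH3 library than in every NC library. The ratio of the group means ran from 2.10 for IFI16 to 5.33 for IFI27, and the log2 difference from 0.71 for XAF1 to 2.24 for IFI27 with a median of 1.58, beside a median of -0.01 over all genes tested. IFI44, IFI44L, IFI27, IFI35, IFI16 and RTP4 passed the adjusted threshold and IFI6 and XAF1 did not. Of all genes tested 1.76% passed it in either direction and 1.28% as higher in shALKBH3. The groups did not overlap for 24.9%, and 12.9% had every shALKBH3 library above every NC library. Because the genes were chosen from this contrast, nothing is read from their count against that background.

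IFI44 and its neighbour IFI44L are paralogs encoding cytoplasmic proteins of the antiviral response, and lie side by side on chromosome 1. IFI44 (ENSG00000137965) measured 27.7, 30.3 and 28.7 FPKM in NC replicates 1 to 3, and 91.0, 99.4 and 95.4 FPKM in shALKBH3 replicates 1 to 3. The libraries of each group lay close together and the groups were far apart, the lowest shALKBH3 value being 3.00 times the highest NC value. The means were 28.9 ± 1.33 and 95.3 ± 4.18 FPKM (SD, n = 3 each), a log2 difference of 1.69 (SE 0.074, 95% interval 1.51 to 1.87, adjusted p = 0.0011). IFI44L measured 16.3, 17.2 and 9.93 FPKM in NC and 56.6, 59.0 and 56.6 FPKM in shALKBH3. The knockdown libraries were nearly level, and NC replicate 3 stood below the other NC libraries. The means were 14.5 ± 3.94 and 57.4 ± 1.38 FPKM (SD, n = 3 each), a log2 difference of 1.95 (SE 0.199, 95% interval 1.47 to 2.44, adjusted p = 0.010). IFI44L missed the threshold when any single shALKBH3 library was left out, with adjusted p between 0.052 and 0.063.

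IFI27 and IFI6 encode small hydrophobic membrane proteins of one family, found at mitochondria and other intracellular membranes. IFI27 on chromosome 14 measured 8.56, 7.03 and 9.01 FPKM in NC and 61.2, 35.3 and 34.5 FPKM in shALKBH3. All 3 knockdown libraries were several times above NC, with replicate 1 well above the others. The means were 8.20 ± 1.04 and 43.7 ± 15.2 FPKM (SD, n = 3 each), a log2 difference of 2.24 (SE 0.236, 95% interval 1.66 to 2.81, adjusted p = 0.012), and without NC replicate 1 the adjusted p was 0.057. IFI6 on chromosome 1 had the highest mean of the 8 in shALKBH3, at 467, 209 and 225 FPKM against 84.1, 83.8 and 109.6 FPKM in NC. The groups did not overlap, yet shALKBH3 replicate 1 was again far above its own group. The means were 92.5 ± 14.8 and 301 ± 145 FPKM (SD, n = 3 each), and the log2 difference of 1.60 (SE 0.318, 95% interval 0.83 to 2.37) did not pass, with an adjusted p of 0.082. Without shALKBH3 replicate 1 the IFI6 difference was smaller, 1.23, and passed with an adjusted p of 0.045.

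IFI35 encodes a leucine zipper protein that binds NMI, itself a partner of STAT proteins. On chromosome 17, it measured 11.9, 11.0 and 15.6 FPKM in NC and 39.4, 26.1 and 31.4 FPKM in shALKBH3. Both groups spread, and the gap between them was 1.68-fold from the highest NC to the lowest shALKBH3 library. The log2 difference was 1.26 (SE 0.188, 95% interval 0.81 to 1.72, adjusted p = 0.037), and it missed the threshold without any 1 of the 6 libraries, with adjusted p between 0.059 and 0.14. The call on IFI35 thus rested on having all 6 libraries, while its log2 difference stayed between 1.11 and 1.40. Leaving out a library also lowered the calls over all genes, from 184 to between 48 and 109.

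IFI16 encodes a sensor of nuclear and cytosolic DNA that acts through STING. It measured 95.0, 85.1 and 87.3 FPKM in NC and 152, 213 and 198 FPKM in shALKBH3. It was abundant in both groups, had the smallest ratio of means of the 8, and was lowest in knockdown replicate 1, where IFI27, IFI6 and IFI35 were highest. Without its transcript IFI16-209, given below, replicate 1 was not the lowest. The means were 89.2 ± 5.21 and 187 ± 31.8 FPKM (SD, n = 3 each), a log2 difference of 1.05 (SE 0.137, 95% interval 0.72 to 1.38, adjusted p = 0.026). IFI16 missed the threshold without any 1 NC library or without shALKBH3 replicate 2 or 3, with adjusted p from 0.073 to 0.12, and passed without shALKBH3 replicate 1 (adjusted p = 0.015).

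RTP4 encodes a chaperone that helps G protein-coupled receptors reach the cell surface. It measured 3.89, 4.12 and 4.50 FPKM in NC and 14.2, 13.8 and 14.6 FPKM in shALKBH3. The libraries agreed closely within each group and the groups were wide apart. The means were 4.17 ± 0.307 and 14.2 ± 0.391 FPKM (SD, n = 3 each), a log2 difference of 1.56 (SE 0.091, 95% interval 1.34 to 1.78, adjusted p = 0.0021). XAF1, which binds and antagonises the apoptosis inhibitor XIAP, had the lowest levels of the 8. It measured 0.893, 0.646 and 0.543 FPKM in NC and 1.70, 1.87 and 1.74 FPKM in shALKBH3, with no overlap. The means were 0.694 ± 0.180 and 1.77 ± 0.0868 FPKM (SD, n = 3 each), and the log2 difference of 0.71 (SE 0.134, 95% interval 0.39 to 1.04) did not pass (adjusted p = 0.071). With a mean of 1.23 FPKM over the 6 libraries XAF1 lay just above the level of 1 FPKM needed to be tested, which it reached through shALKBH3, and the added 1 in the log shrinks its difference most.

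**Figure D2:**
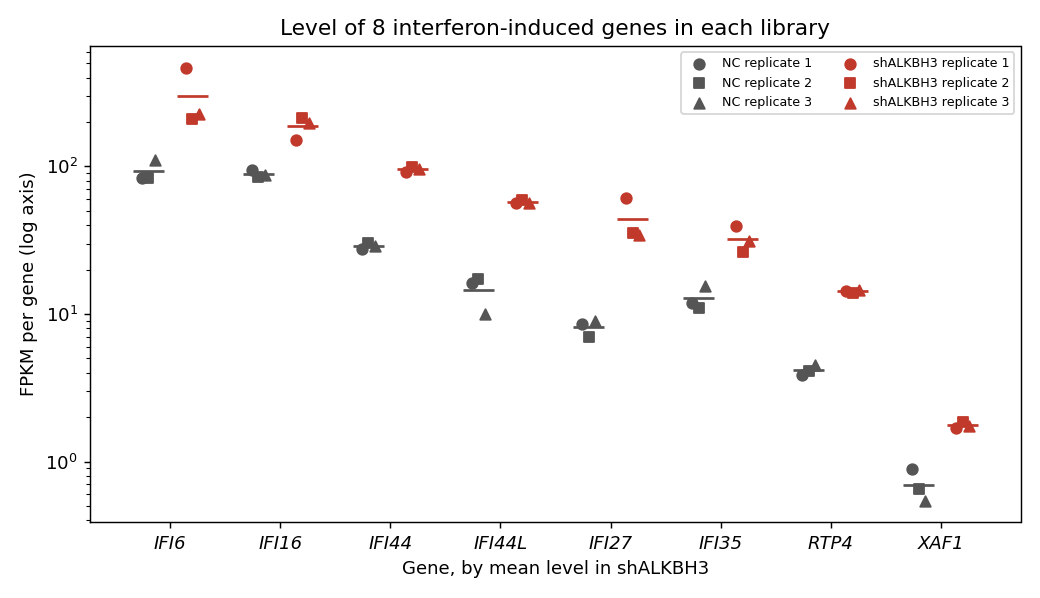
FPKM of each of the 8 genes in each library (y axis, log scale). Grey is NC, red is shALKBH3, and bars are group means. Marker shape gives the replicate number, which the labels do not name as a pairing of the groups. Each red set lies above its grey set, and shALKBH3 replicate 1 stands high for IFI6, IFI27 and IFI35 and low for IFI16.

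FPKM are scaled to length, so the order of levels between genes can be read, but only roughly. Differences between these libraries were linked to transcript length, as given below, and the sums rest on estimates for single transcripts. In NC, IFI6 and IFI16 were highest with overlapping ranges, followed by IFI44, then IFI44L and IFI35 with overlapping ranges, then IFI27, RTP4 and XAF1. In shALKBH3 the ranges of IFI6 and IFI16 again overlapped and IFI44, RTP4 and XAF1 kept their places, while IFI27 overlapped both IFI44L and IFI35. IFI27 was below IFI35 in every NC library and above it in every shALKBH3 library.

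The genes did not spread alike within the knockdown group. The ratio of shALKBH3 replicate 1 to the mean of replicates 2 and 3 was 2.15 for IFI6, 1.75 for IFI27, 1.37 for IFI35 and 0.739 for IFI16, and as log2 differences these placed at percentiles 98.9, 97.2, 90.2 and 6.42 of all genes tested. For IFI44, IFI44L, RTP4 and XAF1 the same log2 difference was between -0.10 and 0.00. Summed without transcript IFI16-209, given below, IFI16 was at 143 and 138 FPKM in replicates 2 and 3 and higher, at 151 FPKM, in replicate 1. The genes high in that library were those whose most abundant listed transcript was shortest, 505 nt for IFI27, 841 nt for IFI6 and 1241 nt for IFI35. Over all genes tested the log2 difference of that library from the other knockdown libraries had a Spearman rho of -0.22 with transcript length, and the log2 difference of shALKBH3 from NC had a larger one, 0.34, with longer transcripts higher in shALKBH3. Both are descriptions across genes that share the same 6 libraries. The part of either in the values of the 8 genes was not tested.

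**Figure D3:**
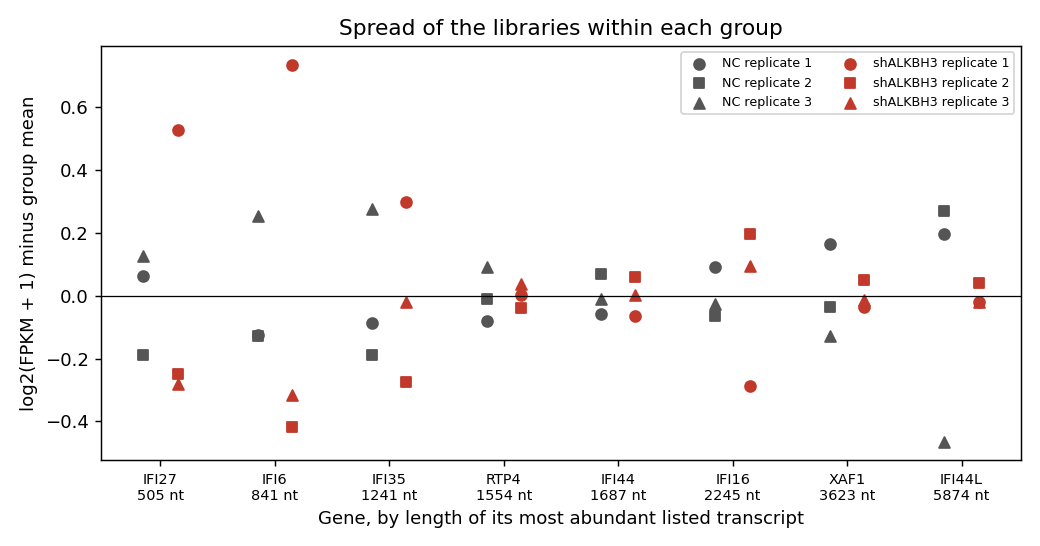
Deviation of each library from its own group mean (y axis, log2(FPKM + 1)) for the 8 genes ordered by the length of the most abundant listed transcript in nt (x axis). shALKBH3 replicate 1 lies above its group for the shortest, IFI27, IFI6 and IFI35, and below it for IFI16, and NC replicate 3 lies below its group for IFI44L.

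The 8 genes had 28 listed transcripts. In 21 of the 28 every shALKBH3 library was above every NC library and in 0 was it below, beside 8.83% of all transcripts with the higher pattern. Because the genes were chosen from this contrast, nothing is read from that count. It also holds transcripts that reached the listing level of 0.5 FPKM through shALKBH3 alone, such as IFI44-202, at 0.342 FPKM or less in NC. Of the 24 transcripts tested for level, 5 passed as higher, beside 0.35% of all transcripts tested: IFI44-201, RTP4-201, IFI44L-202, IFI16-208 and IFI27-207, the last of which was listed at 0 in NC and reached the tested level through shALKBH3 alone. How fragments were divided among overlapping transcripts is not given, though values down to 1e-06 FPKM look like a model's estimates. Values of single transcripts are therefore taken as less certain than sums per gene.

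IFI16 had the clearest unevenness between its transcripts. IFI16-208 (2245 nt), the main form, measured 66.1, 63.0 and 66.7 FPKM in NC and 107, 103 and 97.5 FPKM in shALKBH3, a log2 difference of 0.64 (adjusted p = 0.038 over transcripts). IFI16-209, a model of 1095 nt in 4 exons with an incomplete 3′ end, measured 1.42, 1.19 and 0.710 FPKM in NC and 1.09, 69.3 and 60.0 FPKM in shALKBH3. It was thus near the NC level in knockdown replicate 1 and made up 32.6% and 30.3% of IFI16 in replicates 2 and 3. Its level difference did not pass (adjusted p = 0.53). Summed without IFI16-209, a choice made after its values were seen, IFI16 was at 93.6, 83.9 and 86.6 FPKM in NC and 151, 143 and 138 FPKM in shALKBH3. On that sum the libraries of a group lay close together, and knockdown replicate 1 was the highest of its group instead of the lowest. The log2 difference was 0.70 with a limma adjusted p of 0.011.

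For IFI44 the complete form IFI44-201 measured 21.9, 23.2 and 23.3 FPKM in NC and 81.2, 85.1 and 79.9 FPKM in shALKBH3, a log2 difference of 1.80 (adjusted p = 0.0021). It made up 78.9% of the gene in NC and 86.2% in shALKBH3 on average, and the difference in share did not pass (adjusted p = 0.88). IFI44L-201, the long form of 5874 nt, held 85.3% and 85.8% of IFI44L in the respective groups. The IFI27 sum was spread over 8 listed transcripts, mostly IFI27-211, IFI27-212 and IFI27-215. IFI27-207, whose annotated start lies 5900 nt upstream of the nearest RefSeq start, was listed at 0 in all 3 NC libraries and at 2.17, 3.24 and 3.28 FPKM in shALKBH3. It entered the test only through the group where it was high, so its call had to follow a difference and is given no weight. In IFI35 the second form, IFI35-204, made up 59.1% of the gene in shALKBH3 replicate 2 and 34.3% in each of replicates 1 and 3. Of the 22 transcripts of the 8 genes tested for share, 0 passed by limma, beside 0.0733% of all 16367 transcripts tested. An unadjusted limma p under 0.05 was found for 3 of the 22 and for 834 of the 16367. With so few passing anywhere, the 0 does not show that shares were unchanged.

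IFI6 has 3 listed transcripts whose coding sequences are the same except for added bases after coding base 72, shown here from GENCODE release 29 with the added bases in capitals because they are the only coding difference between the forms.
IFI6-202: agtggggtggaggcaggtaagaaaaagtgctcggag
IFI6-203: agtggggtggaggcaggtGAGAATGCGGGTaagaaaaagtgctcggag
IFI6-201: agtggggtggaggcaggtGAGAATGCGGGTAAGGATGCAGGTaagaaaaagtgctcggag
The shortest of these, IFI6-202, encodes 130 codons, IFI6-203 adds 12 bases and IFI6-201 adds 24. IFI6-202 measured 68.4, 71.2 and 93.4 FPKM in NC and 386, 167 and 181 FPKM in shALKBH3. IFI6-203 was at 13.7, 10.8 and 14.2 FPKM in NC and 69.2, 36.5 and 37.4 FPKM in shALKBH3. IFI6-201 was the least abundant, at 1.88 to 2.03 FPKM in NC and 5.91 to 12.3 FPKM in shALKBH3. All 3 forms were higher in the knockdown libraries, each highest in replicate 1, and their mean shares differed little, with IFI6-202 at 83.8% in NC and 81.0% in shALKBH3.

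**Figure D4:**
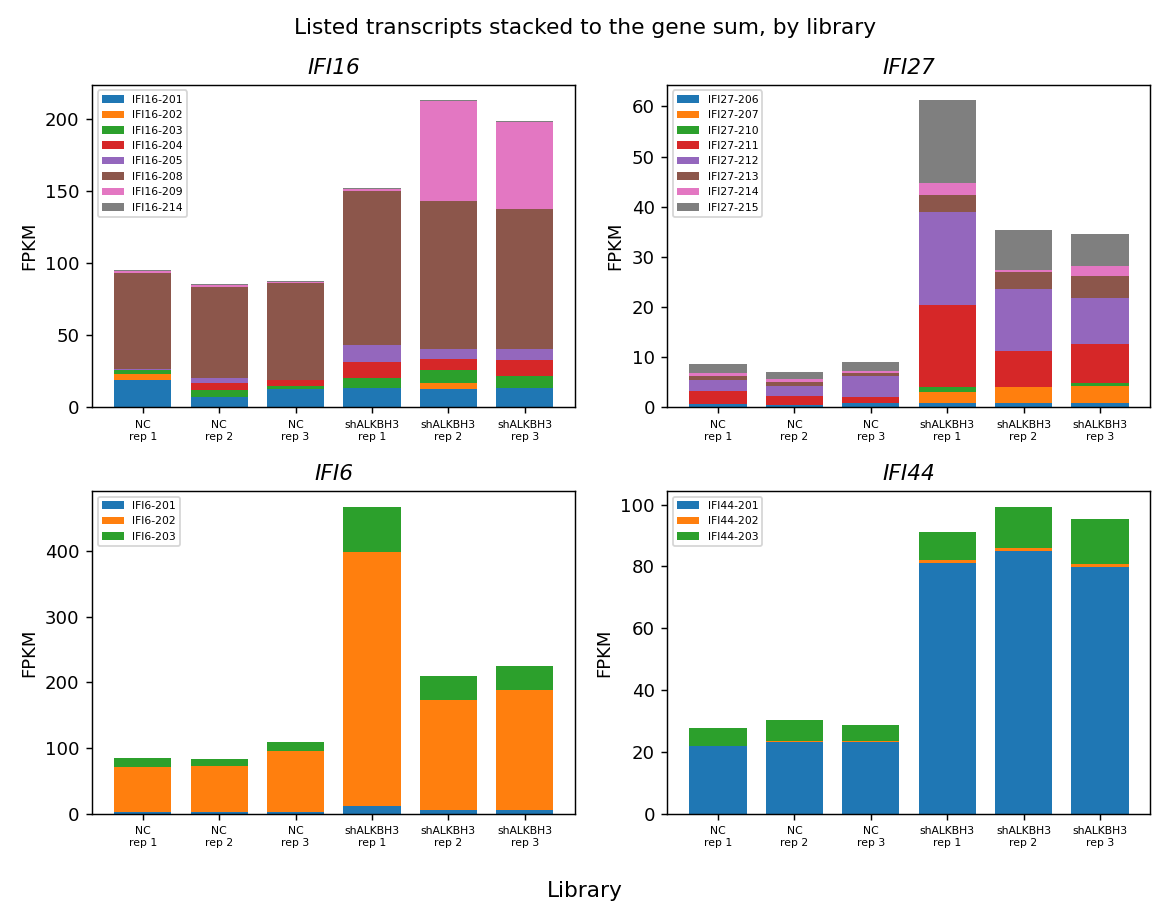
FPKM of the listed transcripts of IFI16, IFI27, IFI6 and IFI44 stacked to the gene sum (y axes) in each library (x axes). The IFI16-209 block appears in shALKBH3 replicates 2 and 3 and is near 0 in replicate 1, whereas the 3 IFI6 forms keep similar proportions in every library.

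Genes related to the 8 by family, protein partnership or name did not all differ with them. Of 10 listed, IFIH1, NMI and TRIM21 rose and 0 fell, with a median log2 difference of 0.31. IFIH1, which encodes the double-stranded RNA sensor MDA5, was at 26.4, 28.7 and 22.7 FPKM in NC and 65.4, 83.2 and 76.1 FPKM in shALKBH3, a log2 difference of 1.49 (adjusted p = 0.0051). NMI, the binding partner of IFI35, was at 10.5, 9.42 and 7.92 FPKM in NC and 18.6, 21.5 and 19.3 FPKM in shALKBH3, a log2 difference of 1.02 (adjusted p = 0.019). TRIM21, an intracellular antibody receptor, was at 17.4, 21.5 and 21.9 FPKM in NC and 44.0, 44.8 and 42.8 FPKM in shALKBH3 (adjusted p = 0.0082). All 3 had their groups apart, and IFIH1 and NMI but not TRIM21 had an ISRE-type match in a RefSeq window. IFI27L1 and IFI27L2, paralogs that flank IFI27 in the gene order of chromosome 14, had log2 differences of 0.13 (adjusted p = 0.81) and -0.10 (adjusted p = 0.77) and no ISRE-type match. IFI27L2 was at 37.6, 44.2 and 57.7 FPKM in NC and 43.0, 42.1 and 43.0 FPKM in shALKBH3, with overlapping groups. IFI30, a lysosomal thiol reductase known as induced by interferon gamma, is not among the 8 although it carries an IFI symbol, and had a log2 difference of -0.07 (adjusted p = 0.85). XIAP, the target of XAF1, was at 1.34, 2.20 and 1.46 FPKM in NC and 7.38, 1.71 and 8.29 FPKM in shALKBH3. Its replicate 2 lay among the NC values, and the log2 difference of 1.17 did not pass (adjusted p = 0.29).

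**Figure D5:**
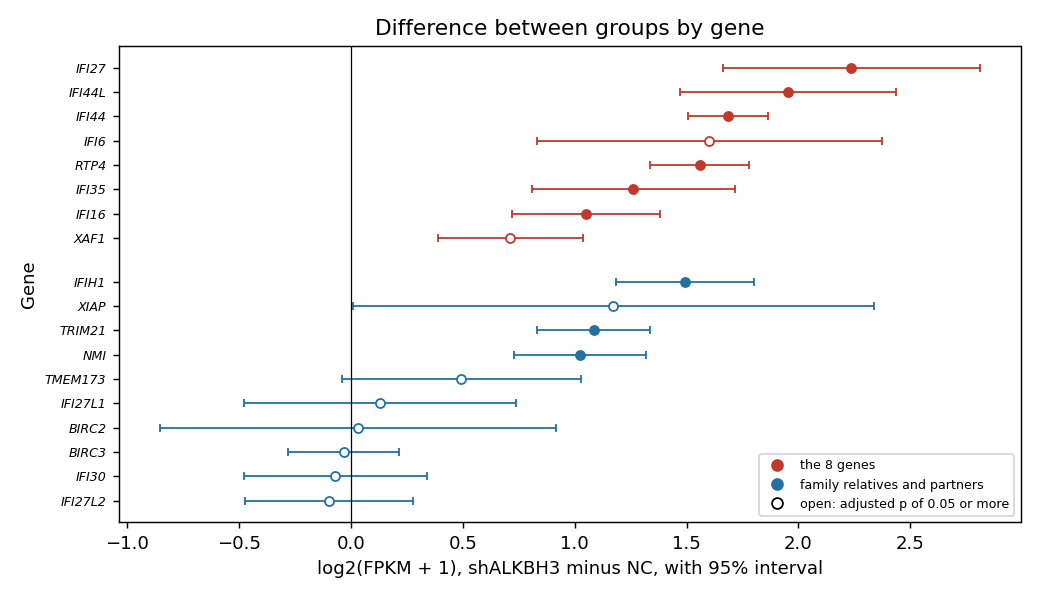
Log2 difference, shALKBH3 minus NC, with its 95% interval (x axis) for the 8 genes and their 10 listed relatives and partners (y axis). Filled points passed the adjusted threshold and open points did not. The 8 genes lie between 0.71 and 2.24, while of the relatives IFIH1, NMI and TRIM21 are filled and IFI27L1, IFI27L2 and IFI30 lie near 0.

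The protein-coding neighbours of IFI35 and IFI6 had small differences that did not pass: RPL27 -0.38 (adjusted p = 0.25) and VAT1 -0.18 (adjusted p = 0.51) beside IFI35, and FAM76A 0.06 (adjusted p = 0.86) beside IFI6. Neighbours of IFI16, RTP4 and XAF1 had no listed transcript.

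Of the interferons themselves 1 of 10 genes was listed, IFNE, at 3.37, 3.04 and 3.12 FPKM in NC and 5.25, 6.72 and 5.99 FPKM in shALKBH3 (log2 difference 0.74, adjusted p = 0.044). Of 16 listed receptor and JAK-STAT genes 0 fell and 14 did not pass. In 7 of the 16 every shALKBH3 library was above every NC library and in 2 below, where 24.9% of all genes tested had groups that did not overlap. IRF2, a transcription factor of the interferon regulatory family, rose with a log2 difference of 0.63 (adjusted p = 0.028). The ISGF3 components STAT2 and IRF9 did not pass, STAT2 with 0.38 (adjusted p = 0.21) and IRF9 with 0.54 (adjusted p = 0.69). STAT2 was at 11.3 to 15.4 FPKM in NC and at 17.6 FPKM in each shALKBH3 library, so its groups did not overlap. IRF9 varied from 2.35 to 11.6 FPKM within NC alone. The receptor chains IFNAR1 and IFNAR2 had differences of 0.21 and -0.26 that did not pass either, although the groups of each did not overlap. Among 8 tested negative regulators USP18 and ISG15 rose and 0 fell, with a median of -0.05. USP18, which restrains signalling at IFNAR2, was at 3.65, 4.55 and 4.15 FPKM in NC and 19.6, 20.1 and 17.9 FPKM in shALKBH3, a log2 difference of 1.99 (adjusted p = 0.0017).

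In a list of other type I interferon-induced genes 26 of 33 tested rose, 0 fell and 7 did not pass, with a median of 1.51, close to that of the 8 genes. The list was drawn up with results of these data known and is not independent evidence of a direction. Its smallest adjusted p-values were those of IFIT2, IFIT3 and IFIT1, at 0.0011 to 0.0013. In a list of genes induced more by interferon gamma 11 of 15 were listed and 5 tested, of which GBP1 (1.12, adjusted p = 0.0043) and GBP5 (1.15, adjusted p = 0.044) rose. CXCL10, CXCL11 and IDO1 of that list, named after their values were seen, were at 3.09, 2.61 and 1.92 FPKM in NC replicate 1 and at 0.185 FPKM or less in each other library. The same library stood apart for the collagen genes COL1A2 (7.22 FPKM) and COL3A1 (5.46 FPKM), which were at 0.966 FPKM or less elsewhere. Among the 8 genes NC replicate 1 was the highest control for IFI16 and XAF1 and the lowest for IFI44 and RTP4. Without it IFI44, IFI44L and RTP4 still passed and IFI27, IFI35 and IFI16 did not.

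The profile across the 6 libraries was shared with genes inside and outside the interferon lists. Of those named next, UBE2L6, IFIT2, IFIT3, OAS1 and BST2 are in the lists. The lists do not hold every interferon-induced gene. Among tested genes that are not members, the highest Pearson correlations with the mean of the 8 scaled profiles were those of FUCA2, N4BP1, UBE2L6, BATF2, FAM3C, IFIT3, PDGFD and ERO1A, between 0.995 and 1.000. The libraries fall into 2 groups, so any gene that separates them closely gives a high value, and the log2 difference of FUCA2 was only 0.28 (adjusted p = 0.088). IFI44 alone was most like NAPA, IFIT2 and IFIT3, and IFI27 alone most like OAS1, HIST2H2AA3 and BST2. Between pairs of the 8 genes the correlation over 6 libraries ran from 0.75 for IFI6 with IFI16 to 1.00 for IFI44 with RTP4.

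Markers of other cell types were looked at in the same libraries. Of 10 melanocyte-lineage genes 1 was listed, MITF, at 3.29 to 9.53 FPKM in NC and 10.3 to 14.0 FPKM in shALKBH3. Its difference between the groups did not pass (adjusted p = 0.32). The other 9, MLANA, PMEL, TYR, TYRP1, DCT, SOX10, PAX3, EDNRB and S100B, had no listed transcript. Apart from MITF the markers thus did not bear out the labelled melanoma identity. Why they were unlisted was not tested. Of 10 leukocyte markers CD68 and CSF1R were listed, and PTPRC was not. Their sum was 15.8 to 19.7 FPKM in NC and 34.4 to 38.2 FPKM in shALKBH3, carried by CD68, a lysosomal glycoprotein (log2 difference 1.10, adjusted p = 0.010). CSF1R went the other way, with means of 0.884 FPKM in NC and 0.649 FPKM in shALKBH3, and was too low to be tested. Of 5 plasmacytoid dendritic cell markers TCF4 was listed, with its groups apart and higher in shALKBH3 (limma adjusted p = 0.41). Of 5 keratinocyte markers KRT10 was listed, with overlapping groups (limma adjusted p = 0.62). Of 7 fibroblast markers 4 were listed, and they summed to 24.1 to 39.9 FPKM in NC and 24.2 to 29.3 FPKM in shALKBH3. The highest NC sum was that of replicate 1. Of 5 endothelial markers 0 were listed. The part of any of these in the levels of the 8 genes was not tested.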

How the data were processed

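The authors deposited transcript FPKM, 1 table for each of the 6 libraries, per the file headers. Build hg19 and the tools DESeq2 and HTSeq 0.6.0 appear in the submitters' processing notes without their roles. Which estimator, aligner and annotation gave the FPKM is not given in the sources used here. The tables share 28900 transcripts, and in each of these the higher group mean is at least 0.5 FPKM. Identifiers without version were matched to GENCODE release 29 (28796 matched, 104 did not), and FPKM were summed per gene. Genes averaging 1 FPKM or more over the libraries were tested on log2(FPKM + 1) with limma 3.58.1 in R 4.3.3 (two-sided, variance trend, Benjamini-Hochberg over all 10475 genes tested, 912 not tested), and transcripts likewise. Shares of such transcripts were tested by limma without a variance trend, in genes with more than 1 listed transcript. The value tested was the log2 ratio of a transcript to the gene's other listed transcripts, with 1 FPKM added to each. An exact permutation test of 3 against 3 cannot go below p = 0.1 and was not used. The fit was checked on simulated data. Groups came from sample titles.

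Members, lists and tests were chosen with earlier results of these data known. Named were the 8 genes, ALKBH3, listed relatives, ligands, receptors, JAK-STAT genes and regulators, the smallest adjusted p-values of the other lists, and the 8 (for IFI44 and IFI27 3) highest correlations. Pseudocount, filter, scaling, variance trend, transcript choice, replicate block and leaving out each library were the alternatives. A gene that the lists hold is not reported here. Tables and plots used Python 3.11.15, pandas 2.3.3 and matplotlib 3.10.9.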

Additional observations from a re-analysis of the deposited data

How the results depend on the processing

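The 8 genes were higher in shALKBH3 under every alternative run on them, and IFI44 and RTP4 passed in each. Of the 8, 6 passed in the main analysis, 2 with the replicate number as a block, and 3 to 5 when a single library was left out. Over all genes 184 passed, against 20 with the replicate block, 105 with the gene's most abundant transcript instead of its sum, and 48 to 109 with a library left out. Rescaling to equal listed sums gave 153 higher and 24 lower calls, against 134 and 50. With the most abundant transcript alone IFI27 (adjusted p = 0.090) and IFI35 (adjusted p = 0.27) did not pass, and without a variance trend XAF1 did (adjusted p = 0.045). The deviations of same-numbered libraries from their group means had correlations of -0.088, 0.075 and -0.012. Those of differently numbered libraries ran from -0.141 to 0.142. The labels name no pairing, and correlations over all genes cannot settle whether the numbers pair the samples. Of all transcripts 93 passed, 39 to 84 with a library left out and 0 by limma with the replicate block (1504 at unadjusted p under 0.05). Of member transcripts 5 passed, 1 to 3 with a library left out and 0 by limma with the block (19 at unadjusted p under 0.05). For transcript shares 12 passed, 35 with a pseudocount of 0.1, 3 to 34 with a library left out, and 0 by limma with the block (746 at unadjusted p under 0.05). Of the shares of member transcripts 0 to 1 passed with a library left out. The 1 was IFI16-209 without shALKBH3 replicate 1. Its log2 ratio to the other IFI16 transcripts differed by 4.30 (limma adjusted p = 0.042). Depth is unknown, and listing at 0 does not show absence.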
